A study of Homo sapiens with 16 samples.

Results

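The libraries labelled shDNMT1 were compared with those labelled shNC in undifferentiated THP-1 cells kept for 48 h in DMSO, the solvent control. The members are 4 libraries of the 16 in the series, 2 for each line, chosen by the names of the count table's columns (shDNMT1 and shNC without a suffix), and the comparison runs over all 16503 genes that passed a filter on low counts. THP-1 is a cell line from an acute monocytic leukaemia that carries the MLL-AF9 fusion gene and grows as monocyte-like cells. Both lines carried a lentiviral pLKO.1 hairpin and had been selected as infected cells with puromycin, shNC with a control hairpin and shDNMT1 with a hairpin against the DNA methyltransferase DNMT1. The methods name no step that isolates single clones. The sources do not say that a line was made by more than 1 infection, so a difference that comes with the DNMT1 hairpin and one that belongs to that infected line cannot be told apart. In the same series, shUHRF1 and shDNMT3B cells in DMSO carried hairpins against UHRF1 and DNMT3B, again with 2 libraries each. Nothing in the labels says that replicates came from separate cultures. The p-values therefore measure only a spread between libraries of a group, estimated over all 16 libraries, which may be technical.

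DNMT1 copies CpG methylation onto the new DNA strand after replication, and UHRF1 brings it to hemimethylated sites, while DNMT3A and DNMT3B place methyl groups at new sites. In many cancer cells, lower methylation lets silenced repeats, germline genes and endogenous retroviruses be transcribed, and the resulting double-stranded RNA can be sensed as a virus and induce interferon genes. Interferon receptors signal through a complex that holds STAT2 and IRF9 and binds the interferon-stimulated response element in front of antiviral genes, and IRF7 amplifies the loop. ATF4 is the transcription factor of the integrated stress response and drives amino acid uptake and synthesis and tRNA charging. The question of the comparison is which transcripts of resting monocytic cells differ when the cells carry the DNMT1 hairpin.

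The targeted transcript was not called lower. Levels are given as TMM-normalized CPM, counts scaled to the size of the library, replicate 1 before replicate 2. DNMT1 (ENSG00000130816, hg38 chr19:10133342-10231286, minus strand) stood at 89.6 and 140 CPM in shNC and at 82.4 and 111 CPM in shDNMT1. The groups overlapped, and edgeR's quasi-likelihood test gave a log2 fold change of -0.25 with an adjusted p = 0.787, which became 0.204 with the replicate number as a block. The log2 fold change was 0.11 when shNC replicate 2 was left out. The standard error (SE) of the -0.25 was 0.30. Each SE here is the absolute log2 fold change divided by the square root of the test's F statistic. The gene model overlaps S1PR2 on the same strand. The libraries are therefore called by their labels throughout, and every direction below is between libraries so labelled. The DNMT1 partner UHRF1 (log2 fold change 0.10), DNMT3A (-0.18), DNMT3B (-0.14) and the demethylating enzyme TET1 (-0.92, edgeR adjusted p = 0.478) did not pass the test either. Of 9 tested genes of DNA methyltransferases and their partners and 16 of demethylation and methyl-CpG binding, none was called (1 rose in each list and 1 of the second fell with the replicate block).

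Total counts were 20851695 and 14607970 in shNC and 20487145 and 15515035 in shDNMT1, so that 3 counts over a group equal 0.0793 and 0.0797 CPM. Mitochondrially encoded genes held 24.4% and 9.97% of counts in shNC and 28.0% and 12.6% in shDNMT1, a difference between replicate numbers in both lines. Descriptions name another condition than titles in 12 of the 16 sample records. MMP9 (0.489 to 11.4 CPM in columns read as DMSO, 4787 to 25705 in those read as PMA) matched the treatment in the column names in all 16. It cannot check which hairpin a column carries. The summed level of 10 THP-1 markers was 1304 and 1444 CPM in shNC and 1276 and 1289 in shDNMT1, with MEIS1 near 0. Red cell genes summed to 492 CPM in shNC replicate 1, 0 in shNC replicate 2, 2.28 in shDNMT1 replicate 1 and 0.208 in shDNMT1 replicate 2, with 6 of 16 at 0 in all 4. The 18 T, NK and B cell genes summed to 28.5 to 37.4 CPM in shNC and 24.4 to 31.3 in shDNMT1, with CD3E and MS4A1 at or below 0.16 CPM. The 9 platelet genes gave 6.11 to 15.5 and 8.52 to 20.7 CPM, and the 15 dendritic cell genes 78.4 to 78.6 and 56.2 to 60.9. Of 11 tested dendritic cell genes 2 were called lower, and of 7 tested T, NK and B cell genes 1. With the replicate block these were 3 and 1, and none was called higher in either fit. The part of these markers in the results below was not tested.

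Falls outnumbered rises. With the limits set at an adjusted p of 0.05 and a 1.5-fold change, 91 genes were higher in shDNMT1 (0.551% of those tested) and 556 lower (3.37%) by edgeR's quasi-likelihood test. For all 91 and all 556 the groups did not overlap and both replicate pairs had the same sign, while 42.1% of all tested genes had groups without overlap. The falls were larger, with a median absolute log2 fold change of 1.59 against 0.99 for the rises, and 200 falls but 6 rises exceeded 4-fold. Of the falls, 531 were protein coding (3.89% of 13636 tested) and 23 were long noncoding RNAs (1.18% of 1954), against 69 and 17 of the rises. The median over all genes was -0.04. With the replicate block, 461 genes rose (2.79%) and 1122 fell (6.8%), including all 91 and 555 of the 556. Leaving out shDNMT1 replicate 1, shDNMT1 replicate 2, shNC replicate 1 or shNC replicate 2 gave 11, 16, 11 and 28 rises and 225, 263, 357 and 337 falls.

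**Figure D1:**
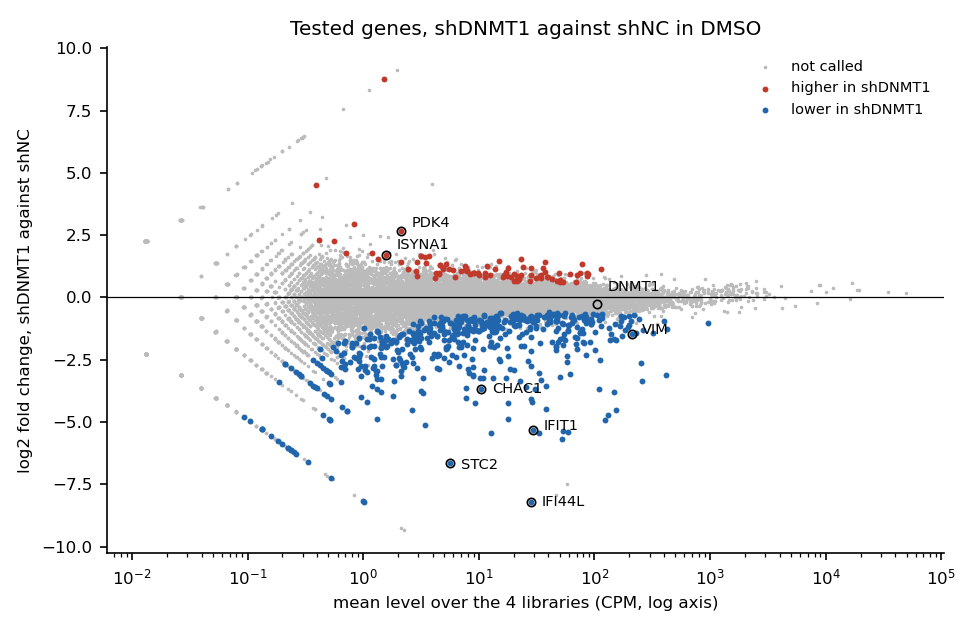
Each point is a tested gene, with its mean level over the 4 libraries (CPM, log axis) on the x axis and its log2 fold change of shDNMT1 against shNC in DMSO on the y axis; genes called higher (91) and lower (556) are coloured and the others grey. The called falls reach -8.20 (FENDRR, with no count in shDNMT1, and IFI44L), while most called rises lie within 4-fold.

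The genes were read in 48 lists of 1115 genes, counted at an adjusted p under 0.05 with no fold limit, at which 94 of all genes were higher (0.57%) and 559 lower (3.39%), 4.34% and 9.23% with the replicate block. Of the 556 falls and 91 rises beyond the fold limit, only 160 and 10 were members of these lists, so most lay outside them. No rise was called in 39 lists, a fall was called in 31 and neither in 13. In bulk RNA, fewer cells of a kind and less RNA per cell cannot be told apart.

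**Figure D2:**
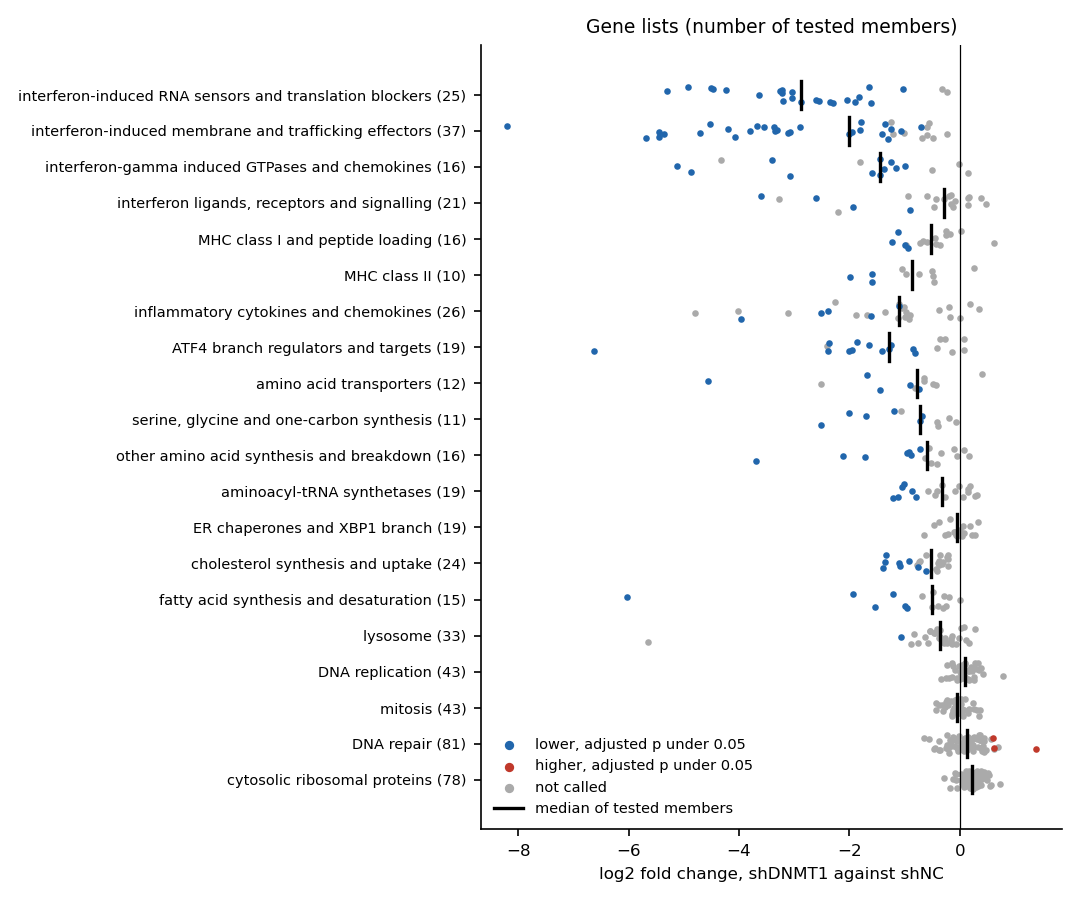
Log2 fold changes of shDNMT1 against shNC in DMSO for the tested members of 20 of the gene lists, 1 point per gene, coloured where called at an adjusted p under 0.05, with the median of each list. Of the lists drawn, those of interferon-induced antiviral genes lie furthest left (medians -2.87 and -2.0), and ribosomal protein and DNA repair lists lie near 0 (0.22 and 0.14).

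Interferon-induced antiviral genes made the deepest fall. Of 25 tested genes for RNA sensing and the block of translation, 23 fell and none rose (median log2 fold change -2.87 against -0.04 over all genes), and of 37 genes for membrane and trafficking effectors 28 fell and none rose (median -2.0). The counts were 22 and at least 23 with any 1 of the 4 libraries left out. With the replicate block, 23 members of the first list and 36 of the second fell and none rose. ZC3HAV1 (-0.33) was among the members of the first list that passed in neither fit. To show letters that a part of these genes hold in front of their start, 3 promoters are printed (250 bases before the RefSeq start, GRCh38.p14, on the strand of the gene). The promoters are from IFI44L (chr1:78620198-78620447, plus strand), IFI27 (chr14:94110486-94110735, plus strand) and EPSTI1 (chr13:42992242-42992491, minus strand). They are the promoters of the fallen list genes with the largest change that hold the letters, and capitals mark the letters of the interferon-stimulated response element, GAAA, any 2 bases and GAAA, read on either strand.
IFI44L: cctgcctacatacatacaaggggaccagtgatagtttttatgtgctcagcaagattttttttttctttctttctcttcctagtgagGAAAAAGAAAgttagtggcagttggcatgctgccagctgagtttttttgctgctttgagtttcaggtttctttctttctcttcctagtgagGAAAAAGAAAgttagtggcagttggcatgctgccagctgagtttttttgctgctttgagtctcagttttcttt
IFI27: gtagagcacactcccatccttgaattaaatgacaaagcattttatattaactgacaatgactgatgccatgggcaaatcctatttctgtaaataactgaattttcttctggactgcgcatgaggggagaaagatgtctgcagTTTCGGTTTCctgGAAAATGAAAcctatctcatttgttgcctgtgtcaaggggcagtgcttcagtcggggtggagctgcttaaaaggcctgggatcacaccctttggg
EPSTI1: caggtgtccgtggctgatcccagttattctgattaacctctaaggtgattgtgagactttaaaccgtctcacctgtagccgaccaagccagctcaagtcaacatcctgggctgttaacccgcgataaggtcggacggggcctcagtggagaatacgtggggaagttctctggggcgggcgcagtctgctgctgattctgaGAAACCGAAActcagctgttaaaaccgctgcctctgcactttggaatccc
IFI44L and IFI27 hold 2 matches each and EPSTI1 1, and the matches nearest to the start begin 73, 95 and 50 bases before it. Over all 27305 RefSeq promoters of this length, 839 (3.07%) held the letters, and 289 of the 11736 of tested genes (2.46%). Among the 62 fallen genes of the 2 lists above and of the interferon-gamma list below, 47 had a promoter in the table and 27 of these (57.4%) held the letters, against 2 of 9 of the members not called. A match is a description of letters and not a bound site.

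IFIT1 (ENSG00000185745, chr10:89392546-89406487), whose protein binds foreign RNA caps, stood at 61.7 and 53.9 CPM in shNC and at 1.41 and 1.51 in shDNMT1. All shDNMT1 values lay far below all shNC values (log2 fold change -5.30, SE 0.28, edgeR adjusted p = 2.02e-07). OAS2, which makes the messenger 2-5A on double-stranded RNA, went from 240 and 236 CPM to 7.17 and 8.47 (-4.92, SE 0.19, edgeR adjusted p = 5.4e-08). Its relative OAS3 fell by 4.52 on the log2 scale. The GTPase MX1, which traps viral nucleocapsids, was at 95.1 and 114 CPM in shNC and at 1.90 and 3.17 in shDNMT1 (-5.36, edgeR adjusted p = 2.61e-07). IFI44L was at 51.8 and 61.2 CPM and then at 0 and 0.364, a change of -8.20 (SE 0.50, edgeR adjusted p = 5.76e-07). SIGLEC1, the sialic acid receptor CD169 of macrophages, fell from 130 and 100 CPM to 2.50 and 2.91 (-5.41), and IFITM1, which hinders viral entry, from 262 and 240 to 8.80 and 10.4 (-4.71). For each of these genes the groups were separate, and the call was kept with each of the 4 libraries left out. Members of the second list that did not pass include SAMHD1, APOL1, APOL2 and IFITM2, which all passed as lower with the replicate block. IFITM2 is a near copy of IFITM1 and IFITM3, whose reads the counting could share.

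The signalling genes fell in fewer cases. Of 21 ligands, receptors and signalling genes, 4 fell and none rose (median -0.29, 9 falls and 2 rises with the replicate block). IRF7 went from 47.8 and 46.3 CPM to 3.64 and 4.05 (log2 fold change -3.61, SE 0.17, edgeR adjusted p = 9.68e-08). IRF9, the DNA-binding partner of STAT2, fell by 1.93 on the log2 scale and IRF2 by 0.90, the latter not called without shDNMT1 replicate 1 (edgeR adjusted p = 0.0942). STAT2 was at -0.93 and passed only with the replicate block (edgeR adjusted p = 0.0983 and 0.000106). The receptor chain IFNAR1 (-0.16), its kinase JAK1 (0.17) and IRF1 (-0.19) did not pass. IFNB1, the interferon beta gene, was at 0.210 and 0.425 CPM in shNC and at 0 and 0.052 in shDNMT1, near the limit of detection (edgeR adjusted p = 0.133), and IFNA1 and IFNG had no count in any of these libraries.

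Sensors of cytosolic DNA divided. IFI16, which binds DNA in the nucleus and cytosol, fell from 56.0 and 58.4 CPM to 5.49 and 3.48 (log2 fold change -3.67, SE 0.22, edgeR adjusted p = 5.04e-07). AIM2, which starts an inflammasome on DNA, was at 0.579 and 0.425 CPM in shNC and had no count in shDNMT1, at least 6.3-fold lower against 3 counts over the group. DNASE2, the lysosomal nuclease, went from 69.2 and 63.1 CPM to 20.1 and 18.7 (-1.77, edgeR adjusted p = 0.000342). These 3 were the called genes of 14 (5 falls with the block), and CGAS (-0.18), STING1 (0.19), TREX1 (0.04) and TBK1 (0.06) of the central pathway did not pass.

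Genes of interferon gamma and antigen presentation were lower in part. Of 16 interferon-gamma-induced GTPases and chemokines, 11 fell (median -1.45, -1.41 with genes without counts at their bound), and 7, 5, 11 and 8 did so without shDNMT1 replicate 1, shDNMT1 replicate 2, shNC replicate 1 or shNC replicate 2. CXCL10, a chemokine for T cells, went from 40.9 and 28.1 CPM to 1.09 and 1.25 (log2 fold change -4.88, SE 0.36, edgeR adjusted p = 4.04e-06), and CXCL11 fell by 5.12. GBP5, a guanylate-binding protein, fell by 1.38 (edgeR adjusted p = 0.000112). CIITA went from a mean of 4.50 CPM in shNC to 1.64 in shDNMT1 and passed less clearly (edgeR adjusted p = 0.0313). CIITA, the master activator of MHC class II genes, fell by 1.45, and 3 of 10 class II genes fell with it (median -0.86, 6 with the block), but 1, 0, 2 and 1 in the fits that leave out a library, in the order above. HLA-DRA went from 9.31 and 13.0 CPM to 3.26 and 2.34 (-1.99, edgeR adjusted p = 0.00416), a call lost without shDNMT1 replicate 2 (0.0681). Of 16 class I and peptide loading genes, 4 fell (TAP1, PSMB8, HLA-C and HLA-E, 9 with the block), and 0, 0, 2 and 1 in the same 4 fits. HLA genes share reads among copies, so their counts are uncertain. Whether the class II falls are linked to that of CIITA was not tested.

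**Figure D3:**
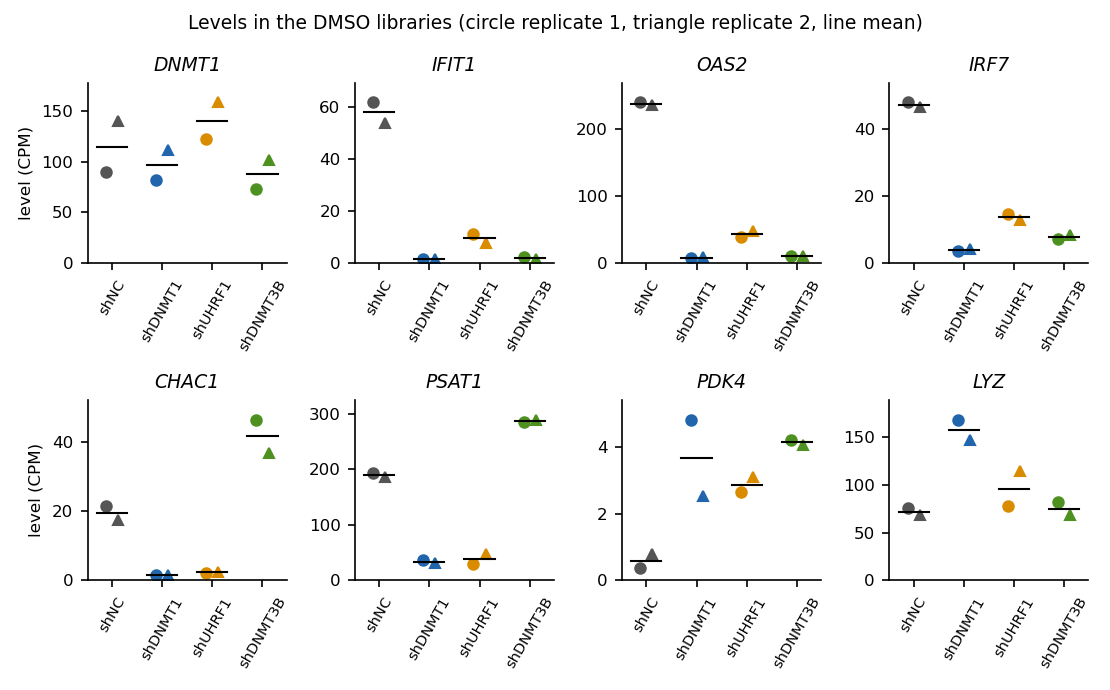
CPM (linear axes) of DNMT1, IFIT1, OAS2, IRF7, CHAC1, PSAT1, PDK4 and LYZ in the 8 DMSO libraries, from left to right in shNC, shDNMT1, shUHRF1 and shDNMT3B, with a circle for replicate 1, a triangle for replicate 2 and a line at the mean. The interferon genes are lowest in shDNMT1 and shDNMT3B, and CHAC1 and PSAT1 are low in shDNMT1 and shUHRF1 but above shNC in shDNMT3B.

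Within the lists, amino acid genes and the ATF4 branch formed the other large block of falls. Of 19 ATF4 regulators and targets 12 fell (median -1.28), of 11 genes of serine, glycine and one-carbon synthesis 6 (-0.73), of 16 other genes of amino acid synthesis and breakdown 7 (-0.60), of 12 amino acid transporters 5 (-0.78) and of 19 aminoacyl-tRNA synthetases 6 (-0.32), with no rise in any. Without shDNMT1 replicate 1 the counts were 9, 2, 4, 3 and 2, without shDNMT1 replicate 2 they were 10, 3, 4, 3 and 3, without shNC replicate 1 they were 10, 4, 6, 4 and 4 and without shNC replicate 2 they were 11, 4, 4, 4 and 3. With the block, 12, 8, 10, 11 and 9 fell and 1 transporter rose. Printed below are the promoters of CHAC1 (chr15:40953221-40953470, plus strand), ATF3 (chr1:212565157-212565406, plus strand) and ASNS (chr7:97872409-97872658, minus strand), with the same build and length as above, because they are the largest falls of these lists whose promoter holds TGATGNAA, the letters used for the amino acid response element that ATF4 binds. Capitals mark the match on either strand.
CHAC1: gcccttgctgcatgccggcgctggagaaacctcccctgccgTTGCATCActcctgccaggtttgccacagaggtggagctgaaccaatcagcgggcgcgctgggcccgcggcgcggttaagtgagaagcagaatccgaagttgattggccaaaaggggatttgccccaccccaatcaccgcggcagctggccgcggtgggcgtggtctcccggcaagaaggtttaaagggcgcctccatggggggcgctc
ATF3: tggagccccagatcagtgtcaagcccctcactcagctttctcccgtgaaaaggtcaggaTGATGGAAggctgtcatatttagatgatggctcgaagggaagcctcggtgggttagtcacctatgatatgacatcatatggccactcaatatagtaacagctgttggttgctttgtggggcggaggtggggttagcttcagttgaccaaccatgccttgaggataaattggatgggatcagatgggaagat
ASNS: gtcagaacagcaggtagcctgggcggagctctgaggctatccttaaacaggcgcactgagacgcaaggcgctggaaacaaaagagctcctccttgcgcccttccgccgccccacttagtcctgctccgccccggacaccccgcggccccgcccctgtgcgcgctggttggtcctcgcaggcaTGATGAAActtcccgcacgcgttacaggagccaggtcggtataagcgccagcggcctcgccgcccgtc
Each holds 1 match, which begins 209, 191 and 68 bases before the RefSeq start. The CHAC1 stretch lies inside the gene model given below, which begins further upstream than the RefSeq start. Over all promoters 870 (3.19%) held these letters, and 181 of those of tested genes (1.54%). Of the 36 fallen genes of the 5 lists, 29 had a promoter in the table and 7 (24.1%) held the letters, against 1 of 31 members not called.

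CHAC1 (ENSG00000128965, chr15:40952962-40956512), which degrades glutathione and is a target of ATF4, went from 21.7 and 17.4 CPM to 1.58 and 1.46 (log2 fold change -3.68, SE 0.22, edgeR adjusted p = 5.76e-07). STC2, a secreted glycoprotein induced by stress, fell from 11.7 and 10.6 CPM to 0.163 and 0.052 (-6.63, SE 0.33, edgeR adjusted p = 1.42e-07). ATF4 itself went from 682 and 524 CPM to 251 and 245 (-1.28, SE 0.20, edgeR adjusted p = 0.00211). All 3 genes had separate groups. TRIB3, an ATF4 target that inhibits AKT, fell by 1.41 and DDIT4, an inhibitor of mTORC1, by 2.0, whereas DDIT3, the factor CHOP, was at -0.41 and did not pass. Among the enzymes, PSAT1 of serine synthesis (ENSG00000135069) went from 193 and 185 CPM to 35.6 and 30.9 (-2.51, SE 0.19, edgeR adjusted p = 5.36e-06), and PHGDH, the first enzyme of that path, from 219 and 199 to 62.0 and 65.6 (-1.71, edgeR adjusted p = 0.0014). ASNS, asparagine synthetase, went from 83.2 and 68.7 CPM to 21.1 and 13.7 (-2.12, edgeR adjusted p = 0.00144) and PCK2 fell by 1.72. SLC7A5, the large neutral amino acid transporter LAT1, fell from 239 and 208 CPM to 72.6 and 66.8 (-1.68, edgeR adjusted p = 0.000184). The glycine transporter SLC6A9 had 2 counts in shDNMT1, a ratio of 26.4 in favour of shNC (95% counting interval 6.95 to 223, counting error only), and was not called without shDNMT1 replicate 1 (edgeR adjusted p = 0.132). CARS1 (-1.21) and AARS1 (-1.05) charge cysteine and alanine tRNAs. Of 19 chaperones and XBP1-branch genes of the endoplasmic reticulum none was called (median -0.05, 1 rise and 1 fall with the block).

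Genes of lipid synthesis were also lower. Of 24 genes of cholesterol synthesis and uptake 8 fell (median -0.51, 16 with the block) and of 15 genes of fatty acid synthesis and desaturation 6 (median -0.50, 10 with the block), and none rose. Without shDNMT1 replicate 1, shDNMT1 replicate 2, shNC replicate 1 or shNC replicate 2, there were 3, 3, 6 and 4 falls in the first list and 2, 4, 5 and 3 in the second. INSIG1, the sterol-sensing anchor of SREBP, went from 154 and 137 CPM to 57.4 and 52.9 (log2 fold change -1.40, SE 0.21, edgeR adjusted p = 0.00202). HMGCS1, which makes HMG-CoA, went from 79.4 and 90.0 CPM to 31.6 and 35.1 (-1.35, edgeR adjusted p = 0.00077), and the desaturase gene SCD from 271 and 240 to 97.6 and 78.7 (-1.54, edgeR adjusted p = 0.000315). SREBF1, the gene of the SREBP-1 factor, fell by 1.22 and was not called without shDNMT1 replicate 1 (edgeR adjusted p = 0.0561). In promoters, the letters TCACNCCAC of the sterol response element, on either strand, stood in 0 of the 11 fallen genes with an entry and in 2 of 21 not called, against 0.875% of all promoters. Of 10 LXR targets and sterol exporters 1 rose and none fell (1 and 2 with the block). The riser, CYP27A1, a mitochondrial sterol hydroxylase, went from 1.84 and 1.22 CPM to 5.27 and 4.37 (1.65, edgeR adjusted p = 0.00157).

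Differentiation and inflammation genes were lower in part. Of 34 monocyte and macrophage markers 6 fell and 1 rose (median -0.56, 14 and 1 with the block), and without shDNMT1 replicate 1, shDNMT1 replicate 2, shNC replicate 1 or shNC replicate 2 the falls numbered 3, 4, 5 and 4. GPNMB, a glycoprotein of macrophages, went from 19.7 and 30.8 CPM to 4.07 and 5.04 (log2 fold change -2.47, edgeR adjusted p = 0.000582). MMP9, the gelatinase that PMA induces, went from 4.52 and 11.4 CPM to 0.489 and 1.66 (-2.87, edgeR adjusted p = 0.00775), a call lost without shDNMT1 replicate 1 (0.0959) or shNC replicate 2 (0.0659). LYZ, lysozyme of granules and monocytes, was the rise, from 75.8 and 67.9 CPM to 168 and 147 (1.14, SE 0.25, edgeR adjusted p = 0.0195), and was called in none of the 4 fits that leave out a library (adjusted p from 0.0708 to 0.155). CD14, the monocyte surface marker, was at 1.16 and 0.957 CPM in shNC and at 1.19 and 0.780 in shDNMT1, overlapping groups with edgeR adjusted p = 0.972. ITGAM, the integrin CD11b, was at 19.6 and 27.0 CPM and at 10.6 and 14.9, separate groups that passed only with the block (edgeR adjusted p = 0.0725 and 0.000257). CEBPE, SPIB and SYTL1 did not pass.

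Of 26 cytokines and chemokines 5 fell and none rose (median -1.10, 10 with the block), and 1, 1, 3 and 2 did so without shDNMT1 replicate 1, shDNMT1 replicate 2, shNC replicate 1 or shNC replicate 2. TNF was at 0.631 and 1.22 CPM in shNC and at 0 and 0.104 in shDNMT1, a ratio of 17.4 from 2 counts (95% counting interval 4.48 to 149, edgeR adjusted p = 0.00942). It was not called without shDNMT1 replicate 1 (edgeR adjusted p = 0.104) or shNC replicate 2 (0.0734). IL1B went from 1.47 and 2.29 CPM to 0.597 and 0.624 (log2 fold change -1.61, edgeR adjusted p = 0.0183), a call lost without shDNMT1 replicate 1 (0.158), shDNMT1 replicate 2 (0.125) or shNC replicate 2 (0.169). NLRP12, a brake on NF-kB, was the called inflammasome gene of 13 (-3.25, edgeR adjusted p = 0.0026), with 1 rise and 2 falls in the list with the block. No gene of 19 for NF-kB, 11 for CD40 signalling or 9 phospholipase C genes was called (3 falls, 2 falls and 2 rises with the block). Among 23 genes of MAPK feedback and immediate early response JUN (-1.42) and SPRED1 (-3.16) fell (5 falls with the block), SPRED1 not without shDNMT1 replicate 1 (edgeR adjusted p = 0.0628). The Src-family kinases moved both ways, among them FYN lower (-1.71) and FGR higher (0.99), FGR not called without shDNMT1 replicate 1, shDNMT1 replicate 2 or shNC replicate 2 (adjusted p up to 0.237). VCAN, the matrix proteoglycan versican, went from 24.8 and 27.7 CPM to 3.75 and 5.25 (-2.54, SE 0.24, edgeR adjusted p = 3.7e-05).

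Cell division genes were not called. Of 43 DNA replication and 43 mitosis genes none passed (medians 0.09 and -0.05, 2 rises and 1 fall with the block), and of 81 DNA repair genes 3 rose (median 0.14, 9 rises and 2 falls with the block). Each of the 3, RAD52, FANCA and RAD54L, was called in no fit that leaves out a library. Of 47 germline and cancer-testis genes, often silenced by methylation, 31 had no count in the 4 libraries and 8 were tested, none of them called (1 rise and 1 fall with the block). One of 16 imprinted genes was lower (3 with the block), GRB10, an adaptor of the insulin receptor (-0.96, edgeR adjusted p = 0.00766), not without shDNMT1 replicate 1, shDNMT1 replicate 2 or shNC replicate 2 (adjusted p up to 0.0885). The 78 ribosomal protein genes and 13 mitochondrially encoded genes had medians of 0.22 and 0.30 with no call (7 and 2 rises with the block), beside the mitochondrial shares given above. VIM, the intermediate filament vimentin, which monocytes express too, carried the fibroblast and epithelial list, at 379 and 238 CPM in shNC and 126 and 98.2 in shDNMT1 (-1.46, edgeR adjusted p = 0.0277). It was called only without shNC replicate 2 (edgeR adjusted p = 0.0244) among the fits that leave out a library, and EPCAM and KRT19 were at or below 0.16 CPM.

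The rises were smaller than the falls. PDK4 (ENSG00000004799, chr7:95583499-95596516), a kinase that turns off pyruvate dehydrogenase, went from 0.368 and 0.797 CPM to 4.83 and 2.55 (log2 fold change 2.65, SE 0.42, edgeR adjusted p = 0.0037). The groups were separate and the call was kept with each library left out. The unnamed gene ENSG00000284431 had no count in shNC and 1.30 and 4.78 CPM in shDNMT1, at least 38.8-fold higher, but it overlaps ADSL and SGSM3 on the same strand and was called in no fit that leaves out a library. MRNIP, a repair factor that overlaps TBC1D9B, rose by 1.54 and SNHG12, a host of small nucleolar RNAs, by 1.46. MRNIP was not called without shDNMT1 replicate 2 (edgeR adjusted p = 0.0688) or shNC replicate 1 (0.0844), nor SNHG12 without shDNMT1 replicate 1 (0.0962), shDNMT1 replicate 2 (0.0788) or shNC replicate 1 (0.151). PCDHGA10 of the protocadherin cluster, which shares exons with its neighbours, rose by 1.53 and was called in no fit that leaves out a library.

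Genes that were on in shNC and at or under 3 counts in shDNMT1 numbered 8, while ENSG00000284431 was the reverse case. FENDRR, a long noncoding RNA of development (chr16:86474529-86509099, minus strand), was at 2.26 and 1.81 CPM in shNC and had no count in shDNMT1, at least 25.5-fold lower (edgeR adjusted p = 0.000293). RALYL, an RNA-binding protein gene, was at 1.89 and 2.07 CPM and then at 0, at least 24.9-fold lower. ZNF462, a zinc finger gene, had a ratio of 26.4 (95% counting interval 6.95 to 223), PAWR, a promoter of apoptosis, 23.9 (6.26 to 203) and TCEAL2 32.2 (10.7 to 159). TCEAL2 was not called without shDNMT1 replicate 1 (edgeR adjusted p = 0.0763) or shDNMT1 replicate 2 (0.0908). The remaining members were SLC6A9 and the uncalled TGIF2-RAB5IF and ENSG00000279809.

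The same shNC libraries serve all 3 knockdown lines, so likeness of their differences from shNC is no independent result, and the lines were compared directly. Against shUHRF1, 25 genes were higher in shDNMT1 (0.151%) and 211 lower (1.28%), 216 and 624 with the block (1.31% and 3.78%). Leaving out shDNMT1 or shUHRF1 libraries gave 3 to 12 rises and 60 to 137 falls. Against shDNMT3B, 238 genes were higher (1.44%) and 765 lower (4.64%), 814 and 1399 with the block (4.93% and 8.48%), and 64 to 128 and 334 to 535 with a library left out. Of the 556 genes lower than in shNC, 163 were also lower than in shUHRF1, 262 lower than in shDNMT3B, 96 lower than in both and 218 different from neither. Against shDNMT3B, 11 of the 556 were higher. Of the 91 genes higher than in shNC, 5 were higher than in shUHRF1, 15 higher than in shDNMT3B and 72 different from neither, while 3 were lower than in shDNMT3B. The same shDNMT1 libraries enter all of these tests, so the choice of genes favours agreement, and the counts are no independent result.

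In the direct tests the lists differed in how many members stood apart from each line. Interferon-induced RNA sensors had medians of -2.87 in shDNMT1, -1.52 in shUHRF1 and -2.54 in shDNMT3B against shNC, and in the direct tests, counted without a fold limit (1.61% of all genes higher and 4.73% lower than in shDNMT3B), 15 of 25 were lower in shDNMT1 than in shUHRF1 and 1 lower than in shDNMT3B (22 and 3 with the block). Of the 37 membrane and trafficking effectors 18 were lower than in shUHRF1 and 7 lower than in shDNMT3B (25 and 12 with the block). Of the 16 interferon-gamma-induced genes 2 and 5 were (5 and 6 with the block). With the block 1 RNA sensor, 2 effectors and 1 interferon-gamma-induced gene were higher than in shDNMT3B, and none higher than in shUHRF1. OAS2 stood at 39.0 and 48.2 CPM in shUHRF1 and at 10.9 and 9.87 in shDNMT3B. The shDNMT1 level was lower than the first (log2 difference -2.48, edgeR adjusted p = 4e-05) and its difference from the second was -0.41 (adjusted p = 0.208). IRF7 was lower than in both (-1.83 and -0.99, edgeR adjusted p = 0.000109 and 0.00283). The ATF4 branch had medians of -1.28, -1.05 and 0.49, and 1 of 19 was lower than in shUHRF1 but 14 lower than in shDNMT3B (4 and 16 with the block). CHAC1 stood at 2.08 and 2.47 CPM in shUHRF1 and at 46.6 and 36.8 in shDNMT3B, log2 differences of -0.59 (edgeR adjusted p = 0.363) and -4.78 (3.37e-07). Serine synthesis, other amino acid genes and transporters had 8, 9 and 9 members lower than in shDNMT3B and 0, 0 and 1 lower than in shUHRF1. With the block, 8, 11 and 10 were lower than in shDNMT3B and 2, 2 and 2 lower than in shUHRF1. In that fit 1, 2 and 0 were higher than in shDNMT3B and 0, 1 and 0 higher than in shUHRF1. Cholesterol genes went the other way, with 12 of 24 higher than in shDNMT3B (medians -0.51, -0.68 and -1.48 against shNC), and 19 higher and 1 lower with the block. INSIG1 was at 15.5 and 14.4 CPM in shDNMT3B, below its 57.4 and 52.9 in shDNMT1 (edgeR adjusted p = 0.000252).

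**Figure D4:**
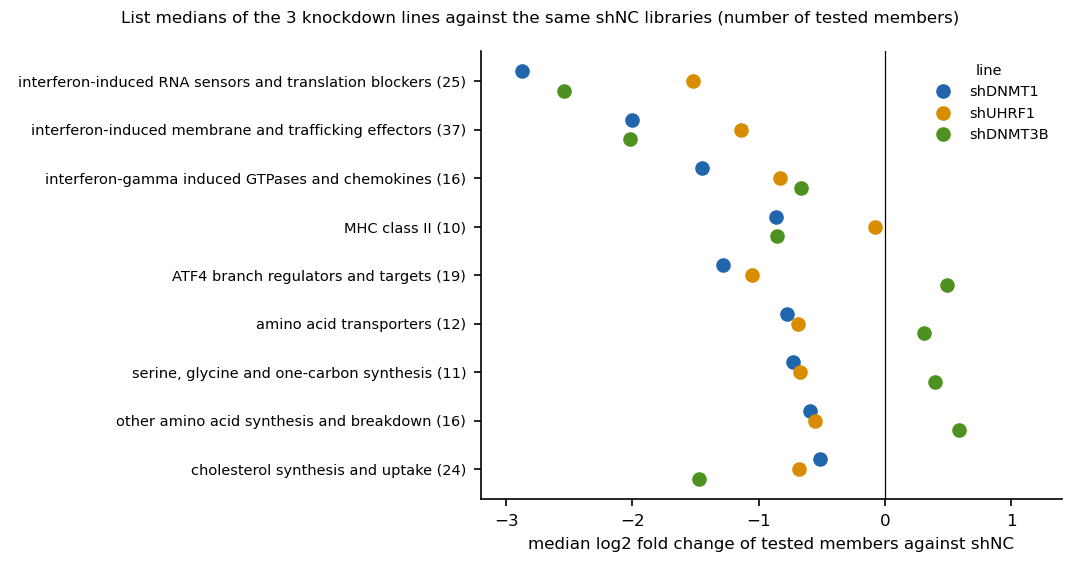
Median log2 fold change against shNC in DMSO of the gene lists, for shDNMT1, shUHRF1 and shDNMT3B, which share the shNC libraries. Interferon-induced lists are below 0 in all 3 lines, whereas ATF4, amino acid and transporter lists are below 0 in shDNMT1 and shUHRF1 and above 0 in shDNMT3B (0.49 for the ATF4 branch).

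Genes that set shDNMT1 apart from both other lines, counted only in the fit without the block, numbered 134 of the 16503 tested. Of these, 13 were higher and 121 lower. Of the 121, 96 were also lower than in shNC, in tests that share the shDNMT1 libraries. AKR1C2, an aldo-keto reductase whose family members share reads, was at 18.2 and 12.9 CPM in shNC, 2.50 and 2.03 in shDNMT1, 29.4 and 29.4 in shUHRF1 and 220 and 202 in shDNMT3B. All shDNMT1 values lay below those of the other lines (log2 differences -2.78, -3.70 and -6.54, edgeR adjusted p = 0.000753, 0.000259 and 2.55e-06). SH3BP4, a regulator of endocytosis, was at 1.68 and 1.91 CPM in shNC, 0.163 and 0.052 in shDNMT1, 2.66 and 3.0 in shUHRF1 and 6.24 and 4.63 in shDNMT3B. ENO2, the neuronal enolase of glycolysis, was at 3.10 and 3.56 CPM in shNC and 0.489 and 0.520 in shDNMT1, and was lower than in either other line (edgeR adjusted p = 0.000109 and 0.00127). Upward, ARRDC4, an arrestin-domain gene, was at 38 and 46.2 CPM in shNC, 80.2 and 83.2 in shDNMT1, 31.8 and 44.7 in shUHRF1 and 22.0 and 25.2 in shDNMT3B. It differed from both other lines (edgeR adjusted p = 0.0123 and 0.000175), but its call against shNC was lost without shDNMT1 replicate 1 (0.0802), shDNMT1 replicate 2 (0.0922) or shNC replicate 1 (0.141). The adhesion gene CLSTN2 and the proteoglycan gene CSPG4 were also higher than in both lines, with calls against shNC that were lost with each library left out in turn (adjusted p up to 0.171 and 0.244), while A4GALT and SERINC2 were higher than in both without a call against shNC.

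By position in the genome, the genes of some chromosomes or parts of chromosomes were shifted. The median log2 fold change was -0.31 over the 557 tested genes of chromosome 4, -0.27 over 521 of chromosome 14, -0.19 over 600 of chromosome 8 and 0.11 over 758 of chromosome 5, and lay between -0.08 and 0.03 on the other 19, where parts of a chromosome can still differ. On chromosome 4 76.5% of genes were below 0, on chromosome 14 79.5% and on chromosome 8 67.7%, against 54.3% of all genes, and on chromosome 5 61.6% were above 0. Each replicate pair gave like medians, -0.28 and -0.30 for chromosome 4, -0.24 and -0.27 for chromosome 14, -0.17 and -0.21 for chromosome 8 and 0.11 and 0.12 for chromosome 5. The genes without a call had medians of -0.28 and -0.25 on chromosomes 4 and 14. In windows of 10 Mb with at least 20 genes, 13 of 13 medians on chromosome 4 (-0.49 to -0.13) and 8 of 8 on chromosome 14 (-0.37 to -0.15) were below 0, and 13 of 14 on chromosome 8. On chromosome 5, 12 of 12 windows from 50 Mb on were above 0 (median of 625 genes 0.15) and 2 of 4 before it (133 genes, -0.01). On chromosome 1, whose median was 0.02, 10 of 10 windows before 100 Mb were above 0 (777 genes, median 0.17, 0.15 in each replicate pair), and 10 of 12 from there on were below 0 (929 genes, median -0.08). Compared with shUHRF1 the medians were -0.28, -0.31, -0.11 and 0.15 for chromosomes 4, 14, 8 and 5, and compared with shDNMT3B -0.14, -0.14, 0.00 and 0.09. In shUHRF1 against shNC they were -0.05, 0.00, -0.07 and -0.04, and in shDNMT3B against the same shNC libraries -0.14, -0.11, -0.12 and 0.05. Other chromosomes were shifted in shDNMT3B against shNC, with medians of 0.25 on chromosome 17, -0.19 on chromosome 13 and -0.16 on chromosome X. Compared with shDNMT3B, the shDNMT1 median of chromosome 17 was -0.28, so shifts of whole chromosomes were not particular to shDNMT1. The first part of chromosome 1 had medians of -0.03 in shUHRF1 and 0.09 in shDNMT3B. Windows, parts and pair medians were chosen after the chromosome values were seen, and the cause of the shifts was not tested.

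**Figure D5:**
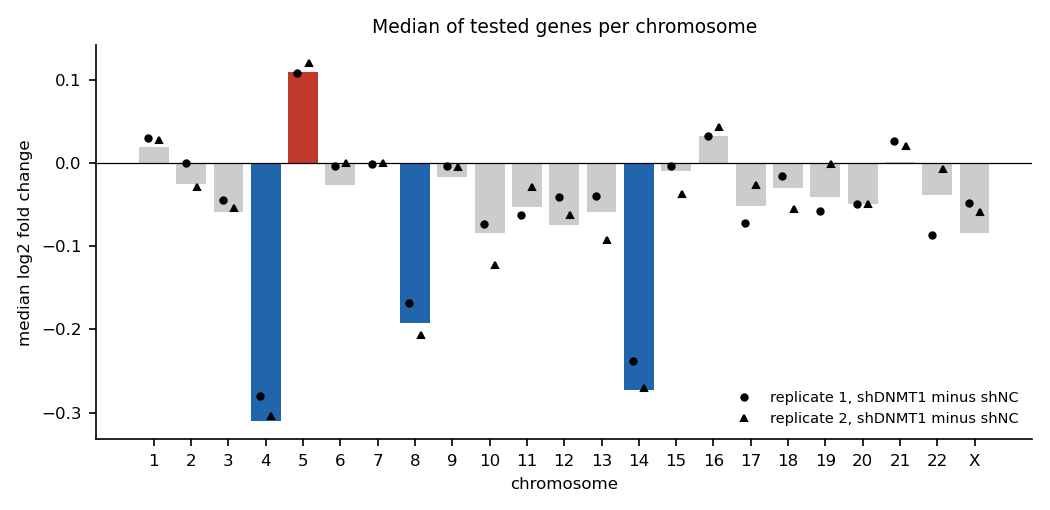
Median log2 fold change of shDNMT1 against shNC in DMSO over the tested genes of each chromosome, with the median difference of replicate 1 and of replicate 2 as separate markers. Chromosomes 4, 14 and 8 lie below 0 (-0.31, -0.27 and -0.19) and chromosome 5 above (0.11) in both replicate pairs.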

How the data were processed

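Stranded mRNA libraries of THP-1 lines were sequenced as paired reads. The authors used STAR 2.4.0b for alignment to hg38; besides it, the submitters' processing notes name Cufflinks 2.1.1, HTSeq 0.6.1p1 and edgeR; the strand setting of the counting is not given in the sources used here. The deposited table holds their raw whole-number gene counts, 60676 Ensembl genes by 16 libraries, of which 60357 genes were named by GENCODE release 44. Columns were given their group and replicate number by their own names, since those of 12 stand in the record of a sample with another title.

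In R 4.3.3, edgeR 4.0.16 kept 16503 genes (filterByExpr, minimum count 10, minimum total 15), scaled libraries by TMM and fitted a robust quasi-likelihood model of all 8 groups with 8 residual degrees of freedom, because 2 libraries per group leave few. P-values were adjusted after Benjamini and Hochberg across the tested genes. Genes were called under 0.05 and beyond 1.5-fold, single genes and list members under 0.05. The comparison of shDNMT1 with shNC, shUHRF1 and shDNMT3B, the gene lists and the named genes were chosen with earlier results of these data known. Named genes are those of the paper, the 15 largest rises and 15 largest falls (adjusted p under 0.05, mean of at least 1 CPM, no overlap), the 4 members with the smallest adjusted p per list, the 10 genes most apart from both other lines in each direction and genes at or under 3 counts in 1 group; only part is printed, some genes are not reported here, and further list members were named after their values were seen. A group without counts was set to 3 counts as its upper limit, and ratios from 1 to 3 counts have 95% intervals, which cover counting error only.

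Replicate numbers paired the libraries: deviations of like-numbered libraries from their groups correlated across genes for 28 of 28 group pairs (0.220 to 0.508, and 0.497 for shDNMT1 with shNC), so a fit with the replicate number as a block was run too. The 2 libraries of a group differed far beyond sampling noise (chi-square per degree of freedom 127 in shDNMT1 and 137 in shNC). Alternatives were DESeq2 1.42.0, upper-quartile scaling, no filter, no fold limit, fits of 8 or 4 libraries, edgeR's exact test with DEGES normalization (3 rounds), and each library left out in turn. The scripts were tested on simulated data drawn without a replicate effect, which does not cover the pairing of the libraries. Promoter sequences came from RefSeq (GRCh38.p14) by symbol, and files were joined with Python 3.11.15 and pandas 2.3.3.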

Additional observations from a re-analysis of the deposited data

How the results depend on the processing

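With 2 libraries a group, the counts of calls rest on how the spread is estimated, while no called named gene turned its direction in an alternative that could be run. Rises over shNC numbered 91 as reported, 461 with the replicate block, 156 by DESeq2, 233 with no filter on low counts, 29 in a fit of the 8 DMSO libraries, 2 in a fit of the 4 libraries and 11 to 28 with a library left out. Falls numbered 556, and 1122 with the block, 252 and 120 in the fits of 8 and 4 libraries and 225 to 357 with a library left out. Against shUHRF1, the 25 rises became 216 with the block, 68 by DESeq2, 80 with no filter, 4 and 0 in the fits of 8 and 4 libraries and 3 to 12 with a library left out, and the 211 falls became 624, 390 with no filter, 75 and 8, and 60 to 137. Against shDNMT3B, the 238 rises became 814 with the block, 416 with no filter, 90 and 45 in the smaller fits and 64 to 128 with a library left out, and the 765 falls became 1399, 439 and 302, and 334 to 535. List members higher went from 11 to 46 with the block, 18 by DESeq2, 5 and 0 in the smaller fits and 3 to 4 with a library left out, and members lower from 160 to 283, 106 and 71, and 100 to 133. A fit with a library left out takes the lone library of its group to vary like the other groups. Of the 122 called named genes, 59 were called without each library in turn and 45 in every alternative, and the block changed none of these calls to not called. The depth, with 3 counts at 0.0793 CPM, limits what can be said of genes near 0, such as IFNB1.

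With a library left out, signs turned or reached 0 in genes that were not called as reported, whose log2 fold changes ranged from -0.53 to 0.11 for DNMT1, -0.129 to 0.366 for UHRF1, -0.390 to 0.000216 for DNMT3A, -0.434 to 0.170 for CD14, -0.399 to 0.199 for SPIB, -0.0984 to 0.187 for CEBPE, -5.95 to 0 for RGS1, -4.32 to 0.282 for COL22A1, -0.747 to 0.291 for KRT8, -4.58 to 0 for ITGB3, -4.01 to 0 for PPBP and -0.360 to 1.49 for GP1BB. The ranges were -13.7 to 5.78 for HBA2 and -14.0 to 6.55 for HBB, which had counts in shNC replicate 1 and none in shNC replicate 2. They were -0.412 to 1.56 for MT-ATP6, -0.551 to 1.80 for MT-CO3, -0.574 to 1.67 for MT-CYB and -0.282 to 1.99 for MT-ND6. The cause was not tested.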
